A study of Mus musculus with 6 samples.

Results

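The enzymes described here are the oxidising (phase 1) and conjugating (phase 2) enzymes of 6 families, namely the cytochromes P450 (Cyp), flavin-containing monooxygenases (Fmo), aldehyde dehydrogenases (Aldh), glutathione S-transferases (Gst), UDP-glucuronosyltransferases (Ugt) and cytosolic sulfotransferases (Sult). Members were taken by symbol and level, from families chosen with earlier results of these data known. They are the protein-coding genes of these families with a mean of at least 1 normalized count over the 6 hearts, and 93 of the 26012 genes in the table met the rule. The families held 114 protein-coding genes in the table, so 21 lay under the mean of 1. The members were 39 Cyp, 20 Gst, 20 Aldh, 5 Fmo, 5 Sult and 4 Ugt genes.

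RNA sequencing compared ventricular tissue of 3 infarcted mouse hearts given control mimic with 3 given miR-19a/19b mimic, to ask what the mimic did to the early transcriptome of the infarcted heart. All 6 hearts came from male C57BL/6 mice operated at 8 weeks of age, in which the left anterior descending coronary artery was ligated. Mimic was injected into the heart at surgery at 10 μg per heart, and tissue was taken on day 4. Both groups therefore carried an infarct and an injection, and an uninjured heart was not analysed here. The hearts were separate animals per the methods, so the p-values measure the spread between 3 and 3 animals. In bulk tissue, fewer cells of a type and less RNA per cell cannot be told apart.

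Phase 1 enzymes add or uncover a reactive group on lipophilic compounds, by oxygen transfer from haem in P450s or from flavin in monooxygenases, and aldehyde dehydrogenases turn aldehydes into acids. Phase 2 enzymes then attach glutathione, glucuronic acid or sulfate, which makes the product water-soluble. These families are best known from the liver, but in the heart they also clear lipid peroxidation aldehydes, make and destroy retinoic acid, and convert arachidonic acid and cholesterol.

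The reference sequences of the injected miRNAs are shown because the seed, bases 2 to 8 in capitals, sets which transcripts they pair with. They are taken from RefSeq (GRCm38.p6). The seed GUGCAAA is shared by both.
mmu-miR-19a-3p (Mir19a, chr14:115044048-115044070, plus strand): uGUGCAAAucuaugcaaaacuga
mmu-miR-19b-3p (Mir19b-1, chr14:115044358-115044380, plus strand): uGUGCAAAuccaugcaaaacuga
Among the members, 91 had an annotated 3′ UTR of at least 8 bases, and 6 of them held a match to this seed in their longest 3′ UTR. That was 6.59% of the members, beside 18.4% of the 15813 genes tested with such a UTR. UTR length, which differs between genes, was not taken into account in these shares. A match was counted where the 7 bases pair with seed bases 2 to 8, or where 6 bases pair with bases 2 to 7 and are followed by A. The 6 members were Fmo1, Aldh3a2, Aldh18a1, Cyp2u1, Cyp2ab1 and Sult6b1. Fmo1 held 2 matches, and Aldh3a2 the only match of 8 bases. These are shown with 8 bases on either side, the match in capitals, as the transcript strand of GRCm38 (GENCODE M21).
Fmo1, first match (chr1:162840488-162840510, minus strand): tctttctgTTTGCACttgatgtc
Fmo1, second match (chr1:162840415-162840437, minus strand): ccctggtgTTGCACAcacaaccc
Aldh3a2 (chr11:61244959-61244982, minus strand): taaaatatTTTGCACAaaatttca
A match is a description of the letters and not a measured site. The log2 fold change (miR-19a/19b against control mimic, on the scale of normalized count + 1) had a median of 0.09 over the 6 members with a match and 0.10 over those without. Over all genes tested with such a UTR the medians were -0.03 and 0.01. The values of 6 members are a description and cannot decide whether a match goes with a difference. Fmo1, with 2 matches, was one of the genes higher in the miR-19a/19b hearts, as given below.

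Libraries held 19398196 to 23645308 reads on genes. The tissue label was borne out by its markers, since all 10 cardiomyocyte markers were measured and summed to between 296436 and 879786 normalized counts per heart. Liver, where many of these enzymes are most abundant, left almost nothing: Alb was at 0 in all 6 hearts and the 4 other hepatocyte markers tested summed to between 3.74 and 17.6. The third miR-19a/19b heart stood apart. Its cardiomyocyte markers summed to 296436, below each control heart (485721 to 636759), whereas the first and second miR-19a/19b hearts reached 879786 and 786161. Its macrophage markers summed to 101136, beside 65716 to 94144 in the other hearts. The first miR-19a/19b heart held 3382 normalized counts of skeletal muscle markers, beside 251 to 424 elsewhere. Of 13 marker lists, the T cell list alone had sums that did not overlap between the groups (260 to 367 in control hearts and 198 to 224 in miR-19a/19b hearts). Counts and calls without the third miR-19a/19b heart are given below.

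The families differed widely in level. Aldh genes made up 45.3% of the members' summed normalized counts, Gst genes 25.3%, Cyp genes 20.6%, Fmo genes 6.44%, Sult genes 1.597% and Ugt genes 0.648%. Of the 93 members, 14 had a mean of 1000 or more, 35 lay between 100 and 1000, 17 between 10 and 100, and 27 below 10. Those 27 included 17 of the 39 Cyp genes, and 15 members had at least one heart at 0. Levels of different genes are compared per kilobase of exon (per kb). Gstp1, a pi class transferase that conjugates electrophiles to glutathione, was the highest member at 2659 normalized counts per kb. Gsto1, an omega class enzyme with thiol transferase activity, followed at 1338 and Aldh2, the mitochondrial acetaldehyde and 4-hydroxynonenal dehydrogenase, at 1230. The highest P450 was Cyp1b1, which oxidises oestrogens, retinoids and polycyclic hydrocarbons, at 452 per kb. The highest sulfotransferase was the phenol-sulfating Sult1a1 at 372, the highest monooxygenase Fmo2 at 227 and the highest glucuronosyltransferase Ugt1a7c at 56.9. A single gene carried 88.7% of the Sult counts and 93.8% of the Ugt counts, beside 28.4% for Cyp1b1 among the Cyp genes. The Ugt share is uncertain, because the Ugt1a genes share exons, as given below.

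**Figure D1:**
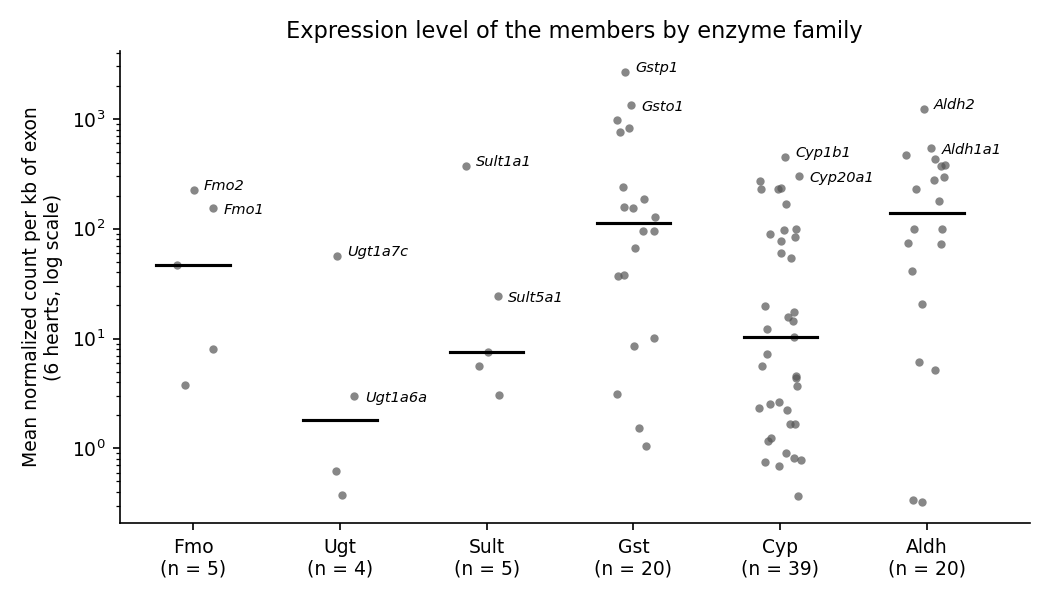
Mean normalized count per kb of exon over the 6 hearts (log axis) for each of the 93 members, by family. Each point is a gene, the line is the family median and the 2 highest genes of each family are named. Gstp1 is highest at 2659, and the family medians run from 1.80 (Ugt) to 139 (Aldh).

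No member passed an adjusted p of 0.05 between the mimic groups (limma on log2(normalized count + 1), Benjamini-Hochberg over 21126 genes). The background was 0% of genes, and the smallest adjusted p of a member was 0.954, so every fold change below from all 6 hearts falls short of correction. An exact permutation test of 3 hearts against 3 cannot go below p = 0.1. edgeR and DESeq2 also called 0 members, while DESeq2 called 29 of all genes. At an unadjusted p under 0.05, 8 members were higher with miR-19a/19b, or 8.60%, beside 1.39% of all genes tested. At the same threshold 3 members were lower, or 3.23%, beside 2.63% of all genes. The higher count depended on single hearts: without the first miR-19a/19b heart 1 member was higher (1.08%, beside 1.40% of all genes), and without the second control heart 2 were (2.15%, beside 1.14%). Groups did not overlap for 10 members in the higher direction (10.8%, beside 3.9% of all genes) and for 4 in the lower direction (4.30%, beside 5.3%). The median log2 fold change was 0.10 over the members and 0.00 over all genes tested. Low counts bear on these numbers, because 6 members reached the mean of 1 with one group below it, 5 of them through the miR-19a/19b hearts, and 2 of the 6 had an unadjusted p under 0.05. Among the 66 members with a mean of at least 10, 5 were higher (7.58%, beside 1.08% of the 15513 genes at that level) and 2 lower (3.03%, beside 2.89%) at an unadjusted p under 0.05, and the median was 0.06. Groups did not overlap for 5 of the 66 in the higher direction (7.58%, beside 3.62%) and for 2 in the lower (3.03%, beside 5.47%).

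The families were compared by the median log2 fold change of their members, as a description with no test between families. It was 0.35 for Fmo, 0.21 for Ugt, 0.15 for Sult, 0.13 for Gst, 0.04 for Cyp and 0.03 for Aldh, beside 0.00 for all genes tested. With single hearts left out the medians ran from 0.25 to 0.47 for Fmo, -0.07 to 0.43 for Ugt, 0.05 to 0.22 for Sult, -0.0014 to 0.16 for Gst, 0.02 to 0.09 for Cyp and -0.05 to 0.12 for Aldh. The negative ends came without the third miR-19a/19b heart for Ugt, the second for Gst and the first for Aldh. All 5 Fmo members had a positive log2 fold change, as did 13 of 20 Gst, 23 of 39 Cyp and 11 of 20 Aldh members. Over all genes tested it was positive for 10728 of 21126, so the Cyp and Aldh counts lay near that share. Among the 22 Cyp members with a mean of at least 10, 11 were higher and 11 lower. The Ugt value rests on 4 genes, of which 2 lay below a mean of 10. Among them Ugt1a6b had a control mean of only 0.311. The order of the families altered when only members with a mean of at least 10 were taken. Their medians were 0.37 for Fmo, 0.16 for Gst, 0.11 for Ugt, 0.10 for Sult, 0.03 for Aldh and -0.0025 for Cyp. The median of all genes at that level was 0.0024. Summed normalized counts told the families apart in another way. The Fmo sum was 2360, 2055 and 2208 in the control hearts and 3438, 2636 and 2598 in the miR-19a/19b hearts, with no overlap and a ratio of group means of 1.31. The Aldh sum was 17423, 16196 and 17693 against 19487, 18844 and 17947, also without overlap, with a ratio of 1.097. The Cyp, Gst, Ugt and Sult sums overlapped, with ratios from 0.962 (Ugt) to 1.11 (Sult).

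**Figure D2:**
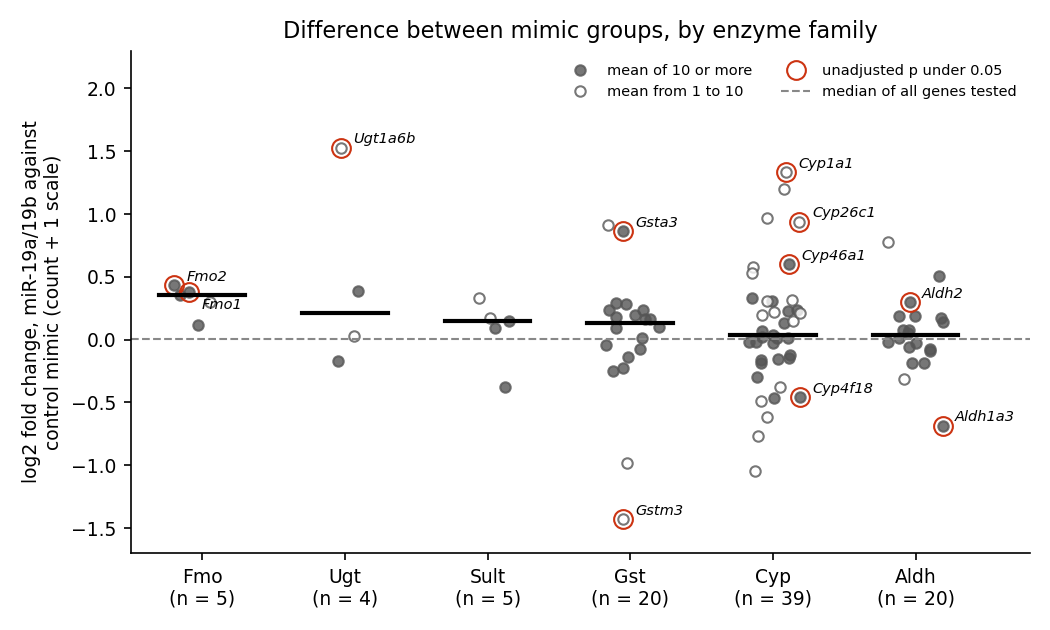
Log2 fold change of each member (miR-19a/19b against control mimic, count + 1 scale) by family. Filled points have a mean of 10 or more, open points a mean from 1 to 10, red rings mark an unadjusted limma p under 0.05, thick lines are family medians and the dashed line is the median of all genes tested. All 5 Fmo genes lie above the dashed line, and most of the widest spread comes from open points.

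**Figure D3:**
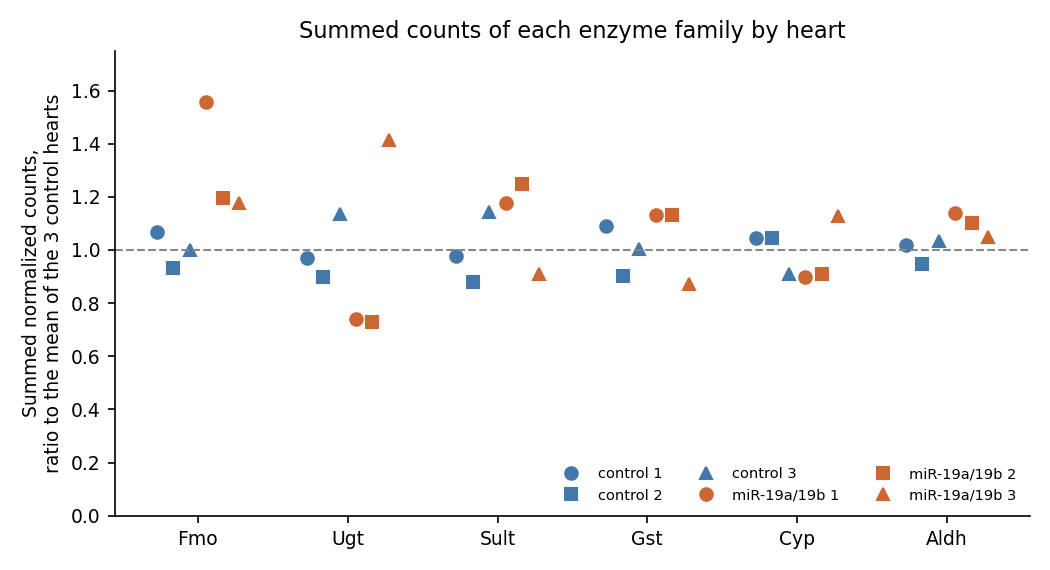
Summed normalized counts of each family in each heart, as a ratio to the mean of the 3 control hearts. Blue marks control and orange miR-19a/19b hearts, with circle, square and triangle for replicates 1, 2 and 3. The groups are apart for Fmo and Aldh. The third miR-19a/19b heart lies above every control for Ugt and Cyp and below every control for Gst, and the first lies on the opposite side in all 3.

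Flavin-containing monooxygenases oxidise nitrogen and sulfur atoms in drugs and other small molecules. Fmo1 (chr1:162829561-162866610, minus strand) stood at 886, 848 and 790 normalized counts in the control hearts and at 1239, 974 and 1081 in the miR-19a/19b hearts. Every miR-19a/19b heart was above every control heart, and the means were 842 ± 48.3 and 1098 ± 133 (SD, n = 3 each). The log2 fold change was 0.38 ± 0.12 (SE), with an unadjusted limma p under 0.05. The p stayed under 0.05 in each of the 7 alternative analyses of all 6 hearts and with any single heart left out, where the log2 fold change ran from 0.29 to 0.46.

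Fmo2 (chr1:162874317-162898726, minus strand), the monooxygenase best known from lung, stood at 1137, 953 and 1144 in control hearts and at 1832, 1369 and 1216 in miR-19a/19b hearts. The groups did not overlap, though the third miR-19a/19b heart lay close to the highest control. Its log2 fold change was 0.43 ± 0.16 (SE), with an unadjusted limma p under 0.05. The p exceeded 0.05 without the second control heart (log2 fold change 0.35) and without the first miR-19a/19b heart (0.26), the heart with skeletal muscle markers, whose part in the result was not tested. Fmo5, a Baeyer-Villiger oxygenase of ketones, stood at 302, 221 and 241 against 318, 263 and 244, with overlap and a log2 fold change of 0.12 ± 0.16 (SE). Fmo4, with a mean of 29.95, had a log2 fold change of 0.35 and overlapping groups. Fmo6 lay just below the mean of 1, at 0.816, and was not a member.

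**Figure D4:**
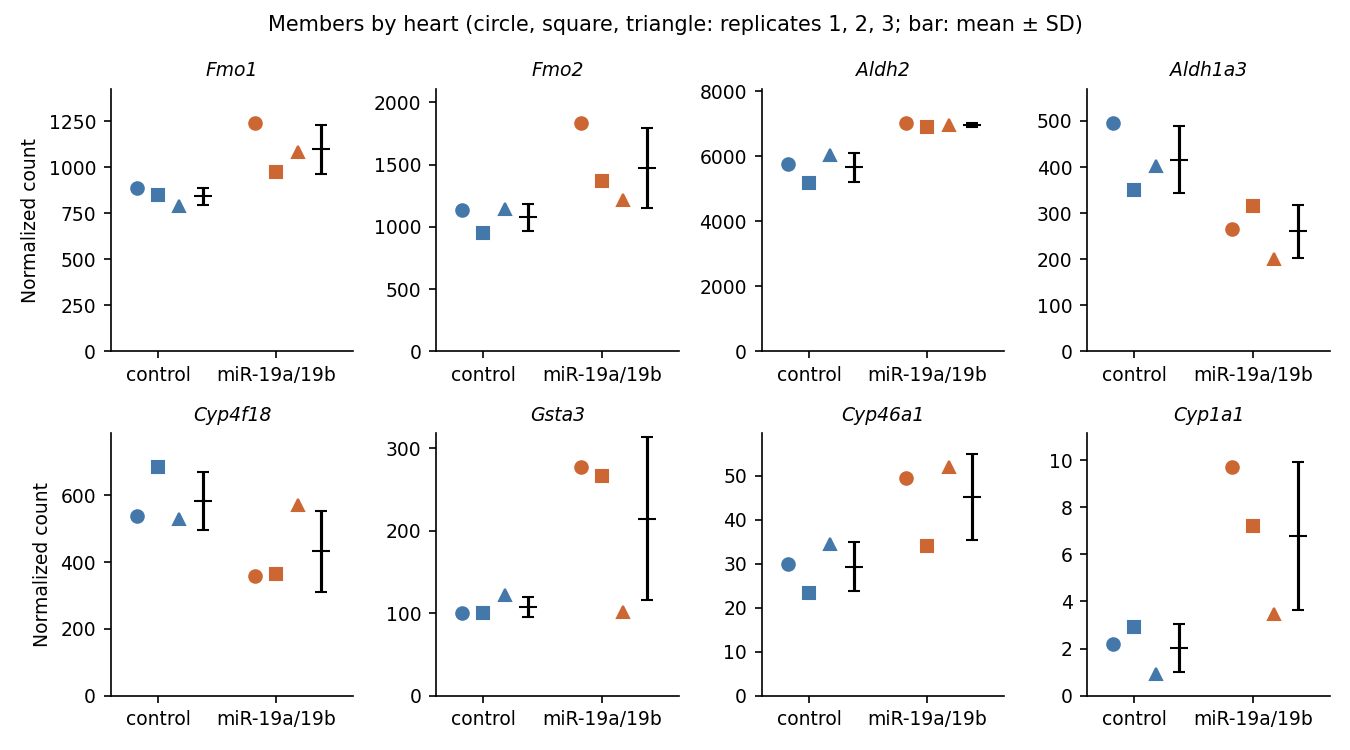
Normalized counts of 8 members with an unadjusted limma p under 0.05, in each heart, with axes that start at 0. Circle, square and triangle are replicates 1, 2 and 3 of each group and the bars give mean ± SD (n = 3). Gsta3 and Cyp4f18 show the third miR-19a/19b heart among the controls, while for the other 6 the groups are apart or, for Cyp46a1, nearly so.

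Aldehyde dehydrogenases fell into mitochondrial enzymes of aldehyde and amino acid breakdown, the retinaldehyde dehydrogenases and others. Aldh2 (chr5:121566027-121593824, minus strand), the most counted member, stood at 5768, 5171 and 6034 in control hearts and at 7019, 6895 and 6957 in miR-19a/19b hearts. The 3 miR-19a/19b values lay close together, above every control. The means were 5658 ± 442 and 6957 ± 62.1 (SD, n = 3), and the log2 fold change was 0.30 ± 0.11 (SE), with an unadjusted limma p under 0.05. That p exceeded 0.05 with the replicate block, with scaling by all counted reads (log2 fold change 0.28) and without the first or second heart of either group (0.24 to 0.32). Aldh2 carried the gap between the Aldh sums, since the 19 other members summed to 11655, 11025 and 11659 against 12468, 11949 and 10990, which overlap. Aldh9a1, which oxidises the carnitine precursor aldehyde, also had groups apart, at 1253, 1154 and 1198 against 1348, 1320 and 1441 (log2 fold change 0.19 ± 0.09 SE, unadjusted limma p over 0.05).

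The retinaldehyde dehydrogenases make retinoic acid, the ligand of the retinoic acid receptors. Aldh1a3 (chr7:66390890-66427517, minus strand) stood at 495, 350 and 403 in control hearts and at 266, 315 and 200 in miR-19a/19b hearts. Every miR-19a/19b heart was below every control heart, with means of 416 ± 73.3 and 260 ± 58.1 (SD, n = 3). Its log2 fold change of -0.68 ± 0.19 (SE, limma adjusted p = 0.954) had the smallest unadjusted p of any member and ranked 132 among the 21126 genes. The unadjusted p stayed under 0.05 in each of the 7 alternatives with all hearts and with any single heart left out, where the log2 fold change ran from -0.84 to -0.51. The T cell list was also lower, with 0 of 8 markers higher. Other marker lists went the same way, with 0 of 6 erythrocyte and 1 of 7 smooth muscle markers higher, though their sums overlapped. Others went the opposite way, with 6 of 7 mesothelial and epicardial and 8 of 8 skeletal muscle markers higher. The part of any of these lists in the Aldh1a3 value was not tested. The paralogues that make up most of this group showed no such separation. Aldh1a1 stood at 1156, 1058 and 1087 against 1316, 1092 and 1036 (log2 fold change 0.05 ± 0.12 SE) and Aldh1a2 at 1088, 1091 and 1163 against 1032, 1188 and 761 (-0.19 ± 0.16 SE). The Cyp26 enzymes, which hydroxylate and so inactivate retinoic acid, were lower in level. Cyp26b1, the highest of them, stood at 98.4, 93.7 and 85.9 against 102, 66.0 and 63.1 (log2 fold change -0.30 ± 0.21 SE). Cyp26a1 was at 13.3, 16.6 and 14.9 against 10.8, 8.25 and 13, without overlap but with an unadjusted limma p over 0.05. Cyp26c1 lay the other way, at 6.63, 3.90 and 4.67 against 12.9, 7.22 and 12.1 (log2 fold change 0.94 ± 0.40 SE, unadjusted limma p under 0.05), on at most 14 reads in a heart. For Cyp26c1 the p exceeded 0.05 in DESeq2, with the replicate block, with scaling by all counted reads and in 4 of the 6 analyses with a heart left out (log2 fold change 0.80 to 0.90). In the list of 16 other retinoid-handling genes, 0 had an unadjusted p under 0.05, beside 1.39% higher and 2.63% lower of all genes tested. By log2 fold change 10 of the 16 were higher, beside 10728 of all 21126 genes tested.

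The P450s of fatty acid and eicosanoid oxidation had 14 members. At an unadjusted p under 0.05, 1 was lower (7.14%, beside 2.63% of all genes tested), and a count of 1 in so short a list is a description. Cyp4f18, a neutrophil-rich enzyme that hydroxylates leukotriene B4, stood at 537, 683 and 529 in control hearts and at 359, 365 and 571 in miR-19a/19b hearts. The first and second miR-19a/19b hearts were below every control, and the third was within their range. The log2 fold change was -0.46 ± 0.19 (SE, unadjusted limma p under 0.05) with all hearts, and -0.68 ± 0.13 (SE, limma adjusted p = 0.0255) without the third miR-19a/19b heart. Without any one of the other 5 hearts the unadjusted p exceeded 0.05, at log2 fold changes of -0.52 to -0.34, as it did in 6 of the 7 alternatives with all hearts (all but the pseudocount of 0.1). The 8 neutrophil markers summed to 2038, 1956 and 1706 in control hearts and to 838, 1457 and 2588 in miR-19a/19b hearts, a split like that of Cyp4f18, and 7 of the 8 were lower by log2 fold change. Csf3r, the most counted of them, ran from 510 to 1307, Ly6g was at 0 in 2 hearts and Camp in 1. Their part in the Cyp4f18 value was not tested. Cyp4f18 also overlaps the exons of Zfp961 on the opposite strand by 181 bases, and the strand setting of the counting is not given in the sources used here.

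Xenobiotic P450s of families 1 to 3 had 9 members. Cyp1b1 stood at 2519, 2671 and 1768 in control hearts and at 1808, 2062 and 3087 in miR-19a/19b hearts. Its groups overlapped throughout (log2 fold change -0.02 ± 0.22 SE), and the third miR-19a/19b heart was the highest. Cyp1a1, the classic target of the aryl hydrocarbon receptor, stood at 2.21, 2.93 and 0.934 against 9.68, 7.22 and 3.46. The groups did not overlap (log2 fold change 1.33 ± 0.52 SE, unadjusted limma p under 0.05), but these are at most 9 reads in a heart. The p exceeded 0.05 in DESeq2 and without the first or the third control heart or the first or second miR-19a/19b heart (log2 fold change 1.04 to 1.41). Cyp20a1, an orphan P450 and the second highest per kb, was at 732, 697 and 637 against 636, 666 and 807 (log2 fold change 0.02 ± 0.12 SE). It shares stretches of at least 150 bases at 95% identity or more with transcripts of 25 other genes. Among the cholesterol, bile acid and steroid P450s, Cyp46a1, the brain cholesterol 24-hydroxylase, stood at 29.8, 23.4 and 34.6 against 49.5, 34.0 and 51.9. One miR-19a/19b heart lay within the control range (log2 fold change 0.60 ± 0.26 SE, unadjusted limma p under 0.05). Leaving out the first or second control heart or the first or the third miR-19a/19b heart took the p over 0.05 (log2 fold change 0.45 to 0.62), as did DESeq2, no filter on low values and scaling by all counted reads. Cyp27a1 and Cyp51, the sterol 27-hydroxylase and lanosterol demethylase, had means of 512 and 392 and log2 fold changes of 0.01 ± 0.14 and -0.12 ± 0.14 (SE).

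Glutathione transferases of the alpha class conjugate products of lipid peroxidation. Gsta3 (chr1:21240589-21265661, plus strand) stood at 101, 101 and 121 in control hearts and at 277, 266 and 101 in miR-19a/19b hearts. The first and second miR-19a/19b hearts held more than every control, and the third was among the controls. The log2 fold change was 0.86 ± 0.35 (SE, unadjusted limma p under 0.05) with all hearts. Without the third miR-19a/19b heart it was 1.33 ± 0.15 (SE, limma adjusted p = 0.00783), and without any other single heart the unadjusted p exceeded 0.05 (log2 fold change 0.61 to 0.95), as it did with no filter on low values. Gsta4, the class member most active on 4-hydroxynonenal, was at 762, 703 and 742 against 851, 820 and 519. The mu class enzymes Gstm1 and Gstm2 stood at 1397, 1016 and 1422 against 1757, 1799 and 1164, and at 1504, 1099 and 1286 against 1501, 1520 and 1355 (log2 fold changes 0.29 ± 0.19 and 0.18 ± 0.13 SE). Without the third miR-19a/19b heart the Gstm1 value was 0.49, with an unadjusted limma p under 0.05. Gstm3, at 4.42, 1.95 and 3.74 against 1.08, 0 and 0.864, had an unadjusted limma p under 0.05 on at most 4 reads in a heart. The p was over 0.05 in DESeq2, with a pseudocount of 0.1 and in 3 of the 6 analyses with a heart left out. Gstp1 was at 2044, 1779 and 2012 against 2067, 2079 and 2096, without overlap, but with means closer than the SD of the controls (1945 ± 145 against 2081 ± 14.8, n = 3 each). Gsto1 was at 3197, 2637 and 2666 against 2891, 2654 and 1756, and the lowest value was again the third miR-19a/19b heart (log2 fold change -0.25 ± 0.18 SE). Gstp1 and Gstp2 share 707 bases at 98.2% identity, Gsta1 and Gsta2 870 bases at 97.2%, and Gstm1 657 bases at 97.9% with Gstm2-ps1, so the split of reads within these pairs is uncertain.

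The promoters of Cyp1a1 and Gsta3 are shown as examples of members with an unadjusted p under 0.05 and a match to letters searched for here. The sequences run from 250 bases before to 50 after the start (RefSeq, GRCm38.p6). Capitals mark the letters GCGTG, found in the core bound by the aryl hydrocarbon receptor, or TGACNNNGC, found in the antioxidant response element bound by Nrf2. Both strands were searched, with overlaps counted. A match describes the letters, and binding at these places was not measured.
Cyp1a1 (chr9:57697363-57697662, plus strand): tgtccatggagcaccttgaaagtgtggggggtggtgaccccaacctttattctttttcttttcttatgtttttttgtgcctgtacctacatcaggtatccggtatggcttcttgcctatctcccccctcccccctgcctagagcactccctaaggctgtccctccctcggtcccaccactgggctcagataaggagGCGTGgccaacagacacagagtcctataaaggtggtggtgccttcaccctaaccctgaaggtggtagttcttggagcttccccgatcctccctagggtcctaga
Gsta3 (chr1:21240335-21240634, plus strand): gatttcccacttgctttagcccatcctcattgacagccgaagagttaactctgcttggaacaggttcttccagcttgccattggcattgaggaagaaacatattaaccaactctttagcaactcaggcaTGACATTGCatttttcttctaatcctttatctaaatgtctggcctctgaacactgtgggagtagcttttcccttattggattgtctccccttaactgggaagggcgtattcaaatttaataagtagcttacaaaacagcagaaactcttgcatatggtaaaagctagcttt
GCGTG lay 54 bases before the Cyp1a1 start, and TGACNNNGC 121 bases before the Gsta3 start. A promoter was matched for 75 of the 93 members. GCGTG was in 30% of the members' promoters and in 32.4% of all 32851 promoters, and TGACNNNGC was in 10% and 12.4%. Of the 11 members with an unadjusted p under 0.05, 7 had a promoter, of which 2 held GCGTG (Cyp1a1 and Cyp46a1) and 2 TGACNNNGC (Gsta3 and Cyp4f18). Nfe2l2, which encodes Nrf2, was level at 2031 to 2113 in control hearts and 1994 to 2098 in miR-19a/19b hearts. This is a transcript level, and Nrf2 protein and its activity were not measured in these data.

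Sulfotransferases and glucuronosyltransferases were scarce. Sult1a1 stood at 519, 457 and 612 against 647, 667 and 462, with overlap (log2 fold change 0.15 ± 0.17 SE, and 0.32 with an unadjusted limma p under 0.05 without the third miR-19a/19b heart). Sult5a1 and Sult2b1, the latter a cholesterol sulfotransferase, had means of 43.5 and 8.48 and log2 fold changes of 0.10 ± 0.25 and 0.33 ± 0.37 (SE). Ugt1a7c stood at 241, 223 and 280 in control hearts and at 173, 178 and 345 in miR-19a/19b hearts, so that the first and second lay below every control and the third above (log2 fold change -0.17 ± 0.25 SE, and -0.49 with an unadjusted limma p under 0.05 without the third). Ugt1a6a was at 11.1, 6.83 and 14.9 against 17.2, 8.25 and 19. Ugt1a6b was at 0, 0 and 0.934 against 3.23, 2.06 and 2.59 (unadjusted limma p under 0.05), which is a single read among the control hearts. The p was over 0.05 in DESeq2 and in 4 of the 6 analyses with a heart left out. The Ugt1a genes share their 3′ exons on the same strand, each member overlapping 8 other genes, so reads there cannot be assigned to one of them. Near the mean of 1 stood Gstt4 (1.04), Cyp2d26 (1.28) and Aldh3b3 (1.37) just above, and Ugt1a2 (0.881), Cyp4f40 (0.825) and Fmo6 (0.816) just below.

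Some members divided the miR-19a/19b hearts among themselves. Over the 93 members together the shares were near those of all genes tested, so the arrangement is not particular to the members as a whole. For 10 of 93 members (10.8%, beside 8.55% of all genes tested) the first and second miR-19a/19b hearts were above every control heart and the third below every control heart. They were Aldh6a1, Aldh4a1, Aldh5a1, Aldh1b1, Gsta4, Gstk1, Gstm7, Gstp2, Cyp2u1 and Cyp3a13, and 4 of them are mitochondrial aldehyde dehydrogenases. The families differed, with 4 of 20 Aldh (20%), 4 of 20 Gst (20%) and 2 of 39 Cyp members (5.13%), and 0 Fmo, Sult or Ugt members. These family counts are small and were not tested. Aldh6a1, the methylmalonate-semialdehyde dehydrogenase of valine breakdown, stood at 1225, 1101 and 1541 in control hearts and at 2088, 1832 and 775 in miR-19a/19b hearts. Aldh4a1, of proline breakdown, was at 507, 343 and 473 against 700, 584 and 298. Of the 10 cardiomyocyte markers, 9 had the same arrangement, and their part in these values was not tested. The reverse arrangement, with the third heart above and the others below, held for 5 members (5.38%, beside 4.44% of all genes), namely Aldh18a1, Aldh1a7, Cyp4v3, Cyp4f13 and Ugt1a7c. Aldh18a1, which makes proline from glutamate, was at 1159, 1135 and 1164 against 1045, 942 and 1326. Both arrangements were noticed in the values and carry no test.

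**Figure D5:**
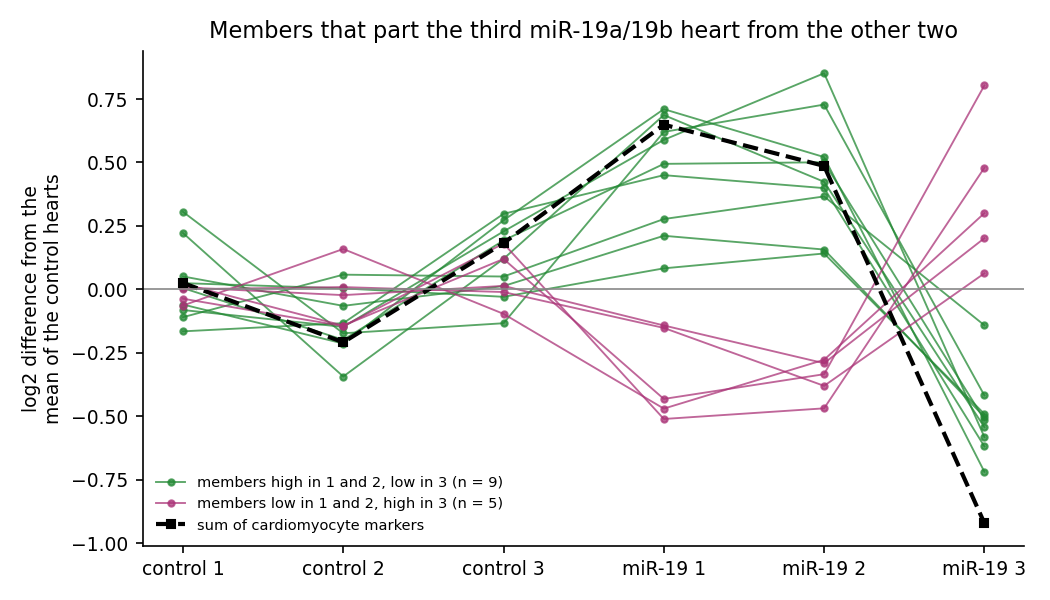
Log2 difference from the mean of the control hearts, in each heart, for members with a mean of at least 10 that set the third miR-19a/19b heart apart from the first and second. Green lines are 9 members high in the first and second and low in the third, purple lines 5 members of the reverse arrangement, and the dashed black line is the sum of the 10 cardiomyocyte markers. The green and black lines are above the control mean in the first and second miR-19a/19b hearts and below it in the third.

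Leaving out the third miR-19a/19b heart altered the calls. In limma 4 members then had an adjusted p under 0.05, 3 higher (Gsta3, Aldh6a1 and Gstm7) and 1 lower (Cyp4f18). That was 3.23% higher and 1.08% lower, beside 1.71% and 0.729% of all genes. At an unadjusted p under 0.05 there were 13 higher and 9 lower members (13.98% and 9.68%), beside 8.41% and 6.12% of all genes. Of the 11 members named by the p with all hearts, 8 were also among these 22. Fmo1 and Aldh1a3 kept log2 fold changes of 0.39 and -0.51, and Aldh2 of 0.30.

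Genes that work with these enzymes were read against the same background of 1.39% higher and 2.63% lower over all genes, and counts of 0 or 1 in lists this short are descriptions. None of 9 P450 partner proteins had an unadjusted p under 0.05, and Por, the reductase that feeds electrons to microsomal P450s, stood at 3393, 3737 and 3146 against 3432, 3276 and 3943. Of 22 other phase 1 enzymes, 1 passed, in the higher direction: Cbr1, a carbonyl reductase, at 372, 347 and 301 against 419, 412 and 434 (log2 fold change 0.31 ± 0.12 SE). Of 13 genes of cofactor supply, 1 passed, also higher: Ggt5, a gamma-glutamyltransferase, at 396, 420 and 360 against 436, 512 and 484 (log2 fold change 0.29 ± 0.12 SE). None of 12 other phase 2 enzymes, 13 xenobiotic and oxidant sensors, 10 Nrf2 target enzymes or 13 phase 3 transporters had an unadjusted p under 0.05. Hmox1, the haem oxygenase induced by Nrf2, was at 25299 in the third miR-19a/19b heart and at 9550 to 11977 in the other 5. Others among the most abundant per kb, all with an unadjusted limma p over 0.05, were Cyb5r3, Akr1a1, Xdh, Mgst3, Mat2a, Ugp2, Hif1a, Prdx1, Dhrs3, Abcc9 and Slco3a1.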

How the data were processed

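The deposited table gives 1 value per gene and heart, which the authors made by aligning poly-A RNA-seq reads, counting them per gene and dividing by a size factor per library (STAR 2.5.1b, HTSeq 0.6.0 and DESeq2 1.10.1 per the submitters' notes). These normalized counts are a signal and not raw counts as deposited by the authors. The notes name mm9, but 67 of the 93 members have exactly the start and end of GENCODE M21 on GRCm38, so coordinates are printed as the file gives them. Whole reads were recovered for 100% of values under 1000 reads (tolerance 0.1 read), and larger values were rounded.

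Genes with a mean of at least 1 (21126) were fitted with limma 3.58.1 (trend, R 4.3.3) on log2(normalized count + 1), 3 hearts against 3, with Benjamini-Hochberg adjustment. The alternatives were edgeR 4.0.16 (quasi-likelihood, TMM) and DESeq2 1.42.0 on the recovered reads, a pseudocount of 0.1, no filter, a floor of 10 counts in each of the 6 hearts, library scaling by total counted reads, a replicate block, and leaving out each heart. The fits were tested on simulated data. Gene lengths are those of the table.

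The members, gene lists and subgroups were chosen with earlier results of these data known. Genes were named by rule where the unadjusted p was under 0.05, where they were among the 3 highest per kb of their family, where groups did not overlap with a mean of at least 10 and a log2 fold change of at least 0.5, or where they lay nearest the mean of 1. Pathway genes were named for p or as the 2 highest per list. Aldh4a1, Aldh6a1, Aldh9a1, Aldh18a1, Cyp26a1, Cyp26b1, Cyp27a1, Cyp51, Fmo4, Gsta4 and Gstm2, and the lists of members that part the third miR-19a/19b heart, were named after their values were seen. The values of some single genes are not reported here.

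The table also holds a log2 fold change, a p-value and an adjusted p-value of the authors, which were not used.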

Additional observations from a re-analysis of the deposited data

How the results depend on the processing

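Counts of members were the least stable values. No member passed an adjusted p of 0.05 in the main analysis or the 7 alternatives with all 6 hearts, and leaving out single hearts gave 0 to 4 (4 without miR-19a/19b replicate 3). Higher members at an unadjusted p under 0.05 numbered 8 (8.60%, beside 1.39% of all genes), but 4 with DESeq2 (4.30%, beside 0.838%), 5 with a floor of 10 counts in each heart (8.47% of the 59 members left, beside 1.01%) and 5 with scaling by all counted reads (5.38%, beside 1.13%). Lower members numbered 3 (3.23%, beside 2.63%), but 1 with DESeq2 (1.08%, beside 1.90%) and 1 with a floor of 10 counts in each heart (1.69%, beside 2.91%), where genes of low count are no longer tested. Leaving out single hearts gave 1 to 13 higher and 1 to 9 lower members: 3 and 1 without control replicate 1, 2 and 2 without control replicate 2, 7 and 1 without control replicate 3, 1 and 3 without miR-19a/19b replicate 1, 5 and 1 without replicate 2, and 13 and 9 without replicate 3. Over all genes the share was 8.41% higher and 6.12% lower without miR-19a/19b replicate 3, and 1.02% to 1.44% higher and 1.76% to 2.47% lower without any other heart. The replicate numbers did not pair the hearts (correlations of deviations -0.0085, -0.0213 and -0.1148), and the replicate block gave 6 higher and 2 lower members (6.45% and 2.15%, beside 0.98% and 2.05% of all genes).

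With a heart left out, the family medians ran from 0.2498 to 0.4742 for Fmo, -0.06797 to 0.4274 for Ugt, -0.001418 to 0.16 for Gst, 0.05054 to 0.2168 for Sult and 0.02007 to 0.08726 for Cyp. The Aldh median ran from -0.0459 without miR-19a/19b replicate 1 to 0.1154 without replicate 3, and the Ugt median was -0.1664 with a floor of 10 counts in each heart, on the 1 gene then left. For the named members, 249 of 306 alternative values kept their side of the unadjusted threshold, 54 lost it and 3 gained it, and no called direction turned. Named members with a main p over 0.05 counted as keeping their side while the p stayed over it. All 54 losses therefore fell on the 11 members with a main p under 0.05. Of these, Cyp4f18 lost the call in 6 alternatives with all hearts and in 5 with a heart left out. Only Aldh1a3 and Fmo1 never lost it. Members below a mean of 10 rest on few reads, and 4 of the 11 with an unadjusted p under 0.05 were among them.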
